A study of Drosophila melanogaster with 3 samples.

Results

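Deep intronic peaks of Nf-YB lie inside a gene, outside every exon and far from any transcription start site (TSS). Of the 6221 peaks in the authors' optimal list, 1254 met this description (20.2%, exact 95% interval 19.2% to 21.2%). Members were chosen by position alone: the summit, the position the peak lists give for the top of a peak, had to lie in an Ensembl gene of the dm6 assembly, outside all annotated exons and more than 2000 bp from the nearest TSS of any gene. Annotated transposable elements were not counted as genes. The experiment was chromatin immunoprecipitation with sequencing on whole embryos, aged 0 to 24 h and of mixed sex, of Drosophila melanogaster. The transgenic flies stably carried a fusion of Nf-YB to GFP, the green fluorescent protein, at the C-terminal end, and the description names an antibody against the fluorescent protein while the antibody field names Nf-YB itself. All 3 biological replicates belong to this single group, so no treatment or genotype was compared. Because whole embryos of many stages were pooled, a peak present in few cells and a weak peak present in many cannot be told apart.

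Nf-YB is 1 of the 3 kinds of subunit of NF-Y. It pairs with Nf-YC through a histone fold, and Nf-YA joins the pair and reads the CCAAT box. NF-Y is best known from promoters, where the box often lies shortly upstream of the start site. Long introns of fly developmental genes are known to hold enhancers, stretches of DNA that control transcription of their own gene or of a neighbour from a distance.

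The strongest deep intronic peaks show both kinds of site found in this class. The following 8 windows are from strong members found in all 3 replicates whose 101 bases around the summit held a CCAAT box. The peaks in spin, L and Egfr, which also held the box and ranked above some of these, are not printed. They are printed on the plus strand of the RefSeq copy of dm6. Capitals mark CCAAT, or ATTGG where the box is on the minus strand.
sens-2: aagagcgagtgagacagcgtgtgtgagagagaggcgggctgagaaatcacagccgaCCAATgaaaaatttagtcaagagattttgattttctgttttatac
dsx: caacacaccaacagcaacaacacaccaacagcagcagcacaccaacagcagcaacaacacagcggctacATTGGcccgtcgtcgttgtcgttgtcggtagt
ct: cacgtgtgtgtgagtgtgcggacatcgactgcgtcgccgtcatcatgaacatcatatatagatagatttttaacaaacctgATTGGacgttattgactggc
ush: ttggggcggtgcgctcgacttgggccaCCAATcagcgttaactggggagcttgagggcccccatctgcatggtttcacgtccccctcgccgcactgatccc
pnr: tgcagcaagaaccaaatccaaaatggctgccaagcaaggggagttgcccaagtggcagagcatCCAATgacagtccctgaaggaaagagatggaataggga
CG34376: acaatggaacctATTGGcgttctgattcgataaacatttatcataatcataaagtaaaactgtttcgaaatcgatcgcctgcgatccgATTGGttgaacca
Axn: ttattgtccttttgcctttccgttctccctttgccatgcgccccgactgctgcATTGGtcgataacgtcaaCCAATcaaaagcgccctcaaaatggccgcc
abd-A: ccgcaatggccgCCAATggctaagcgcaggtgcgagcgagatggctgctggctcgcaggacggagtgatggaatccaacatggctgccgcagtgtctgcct
In the senseless-related zinc finger gene sens-2 (2L:6833794-6833894) the box followed a stretch with 3 GAGAG elements, the core of the site read by GAGA factor, counted on both strands with overlaps. The windows of dsx (3R:7936910-7937010), the sex determination gene doublesex, and of ct (X:7627342-7627442), the homeobox gene cut, held 1 box each on the minus strand. Those of ush (2L:507233-507333), which encodes a partner of GATA factors, of the GATA factor gene pnr (3R:16038217-16038317) and of the Hox gene abd-A (3R:16811861-16811961) held 1 box on the plus strand. CG34376 (3R:22454642-22454742) carried 2 boxes on the minus strand. Axn (3R:30030290-30030390), the gene of the Wnt pathway scaffold Axin, carried 1 on each strand.

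Windows of 4 strong members found in all 3 replicates without the box are shown to set beside them. No letters are in capitals, since no CCAAT was present within 50 bp of the summit.
zfh2: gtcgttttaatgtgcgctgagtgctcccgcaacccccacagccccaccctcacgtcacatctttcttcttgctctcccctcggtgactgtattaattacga
lncRNA:bxd: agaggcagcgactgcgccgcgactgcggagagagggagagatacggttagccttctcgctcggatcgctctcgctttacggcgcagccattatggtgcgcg
CG5888: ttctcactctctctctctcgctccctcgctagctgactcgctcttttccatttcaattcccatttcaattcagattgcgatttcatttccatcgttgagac
Ubx: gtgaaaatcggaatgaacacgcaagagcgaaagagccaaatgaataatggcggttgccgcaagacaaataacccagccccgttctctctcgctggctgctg
The window in CG5888 (2L:16422837-16422937) held 5 GAGAG elements and that in lncRNA:bxd (3R:16764121-16764221), a noncoding gene of the bithorax complex, held 4. The windows in the Hox gene Ubx (3R:16702984-16703084) and in zfh2 (4:508620-508720), which encodes a protein with zinc fingers and homeodomains, held 2 and 1. The zfh2 window also held 1 TAATTA, the core read by many homeodomain proteins. A motif match describes the letters and is not evidence of binding by the factor.

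Signal is the authors' value for a peak and is used only as a rank within a list or relative to the median of the optimal list. The sens-2 peak had the highest signal of all members, 52.9 times the list median. It ranked 50 of 6221 in the optimal list and 51, 62 and 51 in replicates 1, 2 and 3. Its host intron was the 4th and last of the transcript, 4576 bp long, and the nearest TSS, that of sens-2, was 11527 bp away. Each replicate placed this site close to the rank it had in the optimal list.

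The dsx peak ranked 60 in the optimal list and 43, 42 and 88 in the replicates, in the second intron and 15008 bp from the nearest TSS, which belonged to the small RNA gene scaRNA:MeU2-C41. The zfh2 peak ranked 109, with replicate ranks of 130, 117 and 92. It was the widest of all members at 2010 bp and lay on the small chromosome 4. The ct peak ranked 134, with replicate ranks of 131, 113 and 163, and lay in the first intron, 4830 bp from the TSS of ct. These sites were in introns of genes that encode transcription factors.

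The lncRNA:bxd peak ranked 165 (replicates 192, 199 and 137) and the Ubx peak 202 (replicates 219, 235 and 172). Both lie in the bithorax complex on 3R, which sets the identity of posterior segments. The ush peak ranked 186, with replicate ranks of 196, 213 and 169, in a first intron of 49060 bp. The pnr peak ranked 196, with replicate ranks of 159, 187 and 260, also in a first intron. Pnr and Ush proteins are known to form a complex in dorsal tissue, and each of the 2 genes held a strong site of this class.

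The other members among the 15 strongest lay in spin (rank 172), which encodes a lysosomal membrane transporter, CG5888 (189), the eye growth gene L (221), ssp3 (224), CG34376 (233), the EGF receptor gene Egfr (238) and lncRNA:CR32773 (239). All 15 were found in all 3 replicates, with no replicate rank beyond 274. Their signal ran from 15.3 to 52.9 times the list median, 9 of them held CCAAT, and 9 lay in a first intron. All 15 were wider than 444 bp, the most common width in the list.

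As a class, deep intronic peaks sat somewhat low in the ranking. Their median rank was 3479, with quartiles at 1906 and 4852, and the best and the last member ranked 50 and 6207. They made up 2 of the top 100 peaks, 77 of the top 622 (12.4%) and 283 of the last 1244 (22.7%). Their median signal was 0.909 times the list median, against 1.02 for all other peaks, and the quartile ranges of 0.689 to 1.51 and 0.720 to 1.92 overlapped widely.

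In the top 6221 peaks of each replicate, the median rank of deep intronic peaks was 3232, 3322 and 3490, a mean of 3348 ± 130 (SD, n = 3). The median rank of all other peaks was 3080, 3054 and 3011, a mean of 3048 ± 34.9. Deep intronic peaks thus ranked lower in signal in 3 of 3 replicates, and lower also than distal intergenic peaks (2968 ± 250), near intronic peaks (3160 ± 56.6) and promoter peaks (3080 ± 162). Each of these comparisons gave p = 0.25 in a two-sided exact permutation test of the 3 paired values, adjusted p = 0.354 over 17 such tests. That is the smallest p that 3 pairs can give, so none of them can pass a threshold of 0.05. Distal intergenic peaks are those outside genes and more than 2000 bp from a TSS, near intronic peaks are intronic between 500 and 2000 bp, and promoter peaks are within 500 bp of a TSS.

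Deep intronic sequence held fewer peaks per Mb than sequence near a TSS. The bases that meet the position rule, called eligible below, made up 41.4 Mb or 31.0% of the assembled arms and held 30.3 peaks per Mb. Promoter sequence held 154 per Mb, near intronic sequence 68.8, distal intergenic sequence 26.4 and all sequence 46.5. The number of deep intronic peaks was steady between replicates, with 1214, 1269 and 1192 in their top 6221 (19.7% ± 0.638, SD, n = 3).

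Within the class, density was lower at greater distance. It was 47.6 peaks per Mb between 2000 and 3000 bp from the nearest TSS (254 peaks), 44.2 up to 5000 bp (344), 36.2 up to 10000 bp (400), 23.3 up to 20000 bp (200) and 6.49 beyond (56). The corresponding replicate means were 48.7 ± 1.41, 41.1 ± 1.16, 35.0 ± 1.41, 23.4 ± 1.59 and 6.76 ± 0.535 per Mb (SD, n = 3). The ranges of replicate values did not overlap between any 2 adjacent bins. No test was run on this trend.

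Part of the eligible sequence lies in long repeat-rich introns. The 5 genes with the most eligible bases and no deep intronic peak were Myo81F (1929 kb), Pzl (699 kb), lovit (426 kb), CG17684 (387 kb) and DIP-lambda (369 kb). Together they held 9.21% of all eligible bases, 39.6% of their eligible bases were soft-masked as repeats against 24.1% over all eligible sequence, and none had a member in any replicate list. The density beyond 20000 bp was 0.214 times that of all eligible sequence, 0.323 times without these 5 genes and 0.258 times over unmasked bases, alternatives chosen after the data were seen. How well reads could be mapped there was not tested.

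**Figure D1:**
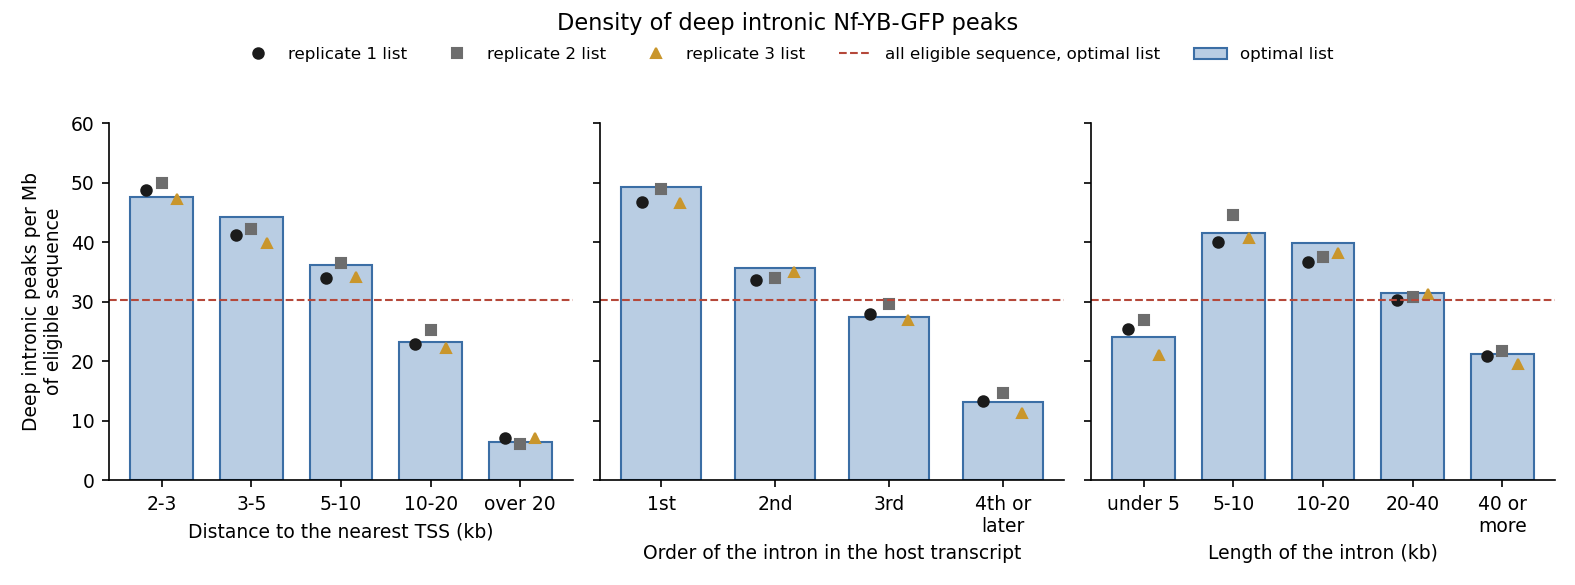
Deep intronic peaks per Mb of eligible sequence (y axis) by distance to the nearest TSS, by order of the intron in the host transcript and by intron length (x axes). Bars are the optimal list, points the 3 replicate lists and the dashed line the 30.3 per Mb over all eligible sequence. Density went from 47.6 to 6.49 per Mb with distance and from 49.2 to 13.1 per Mb from first introns to those beyond the third.

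First introns had the highest density of peaks. They held 515 members (41.1%, exact 95% interval 38.3% to 43.8%) but 25.3% of the eligible bases, a density of 49.2 per Mb. Second introns held 402 (35.6 per Mb), the third introns 153 (27.4 per Mb) and later ones 184 (13.1 per Mb). Order was counted in the longest transcript of the host gene with the summit in an intron. The share in first introns was 40.4%, 40.5% and 41.0% in the replicates, so it varied little between samples. It was 36.4% when the transcript with the most exons was used instead.

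Members lay in long introns, with a median length of 15808 bp, quartiles of 8057.5 and 31826 bp, and a longest of 132044 bp. Density was highest in introns of 5 to 10 kb (222 peaks, 41.6 per Mb) and of 10 to 20 kb (343 peaks, 39.9 per Mb). It was 24.1 per Mb in introns under 5 kb (172 peaks), 31.5 per Mb at 20 to 40 kb (265 peaks) and 21.2 per Mb at 40 kb or more (252 peaks). Both the shortest and the longest introns were thus below the middle ones, in each of the 3 replicates as in the optimal list.

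Most members were in a single gene (1170, 93.3%) and had a protein-coding host (1195, 95.3%). For 819 members (65.3%) the nearest TSS was that of the host, and for 435 it belonged to another gene. The host was taken as the protein-coding gene, or the longest of several, that contains the summit. The median distance to the nearest TSS was 5226.5 bp. The members farthest from any TSS were in bi, 49759 bp away at rank 2335, and in hth, 47560 bp away at rank 3275. The 3 nearest intronic summits on each side of the position threshold show what it separates: Atg1 at 2003 bp, lncRNA:CR44320 at 2010 bp and Hr4 at 2013 bp were inside, and trh at 1999 bp, pum at 1997 bp and CG5521 at 1992 bp were outside. Their optimal ranks were 3724, 2837 and 3061 inside and 3528, 5404 and 3508 outside.

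The 1254 members fell in 593 host genes, many of them with several peaks. A single peak was found in 309 hosts, 2 peaks in 137, 3 in 71, 4 in 34 and 5 or more in 42. The 42 hosts with 5 or more held 322 members, 25.7% of all. The replicate lists gave 44, 50 and 39 such hosts (44.3 ± 5.51, SD, n = 3). Among members found in all 3 replicates, 17 hosts had 5 or more. Among members found in both of the others when replicate 1, 2 or 3 was left out, 18, 19 and 26 hosts had 5 or more.

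lncRNA:CR32773 (FBgn0052773, X:4387676-4611385), a noncoding gene of 224 kb, held the most, 22 peaks in the optimal list and 26, 27 and 16 in the replicates. Of these 22, 15 were found in all 3 replicates, 7 held CCAAT and 10 were wider than 444 bp. The T-box gene bi (X:4412856-4485647), also known as optomotor-blind, lies wholly inside it on the opposite strand. It held 9 further peaks, with 8, 9 and 6 in the replicates. Summits shared by both were assigned to bi, so the choice of host divides this region.

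The Hox gene Antp (FBgn0260642, 3R:6896253-6999228), which sets thoracic identity, held 16 peaks, with 15, 21 and 10 in the replicates. The best ranked 374, and 9 of the 16 were found in all 3 replicates. hth (FBgn0001235, 3R:10507561-10639568), which encodes the Hox cofactor homothorax, held 13, with 13, 15 and 13 in the replicates and 11.5 peaks per 100 kb of eligible sequence. Antp held 19.1 per 100 kb. Antp counts varied between replicates, lowest in replicate 3, while those of hth were steady. Steady counts were not always the same summits, since 7 of the 13 hth peaks were found in all 3 replicates.

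kirre (FBgn0028369, X:2740384-3134532), an adhesion gene of muscle founder cells, held 14 peaks, with 10, 11 and 12 in the replicates. It also had 288 kb of eligible sequence, the density was 4.87 per 100 kb and the best peak ranked 1503. This was the lowest density of the 15 top hosts, and the others ran from 10.8 per 100 kb in jing to 23.2 in pnt. Most of the 14 peaks lay over 200 kb from the 5' end of the gene, as the map of the top hosts shows.

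The nuclear receptor genes Hr4 and Eip75B of the ecdysone response held 10 and 9 peaks, at 22.2 and 12.4 per 100 kb. Zinc finger genes among the top hosts were Cph (11 peaks, 13.5 per 100 kb), jing (10, at 10.8) and sbb (9, at 19.2). pnt, which encodes the ETS factor of EGF receptor signalling, held 9 peaks, and 2 of these were found in all 3 replicates. In ush, 6 of 8 were found in all 3, in the BTB gene lov 7 of 8 and in CG1677 7 of 8. MSAmiP, a micropeptide gene of the bithorax complex, completed the 15 hosts with 9 peaks. Over the 15 hosts, 165 peaks were counted in the optimal list and 159, 181 and 141 in the replicates. With summits within 500 bp counted once, lncRNA:CR32773 had 18, Antp 14, hth 10 and jing 7, while sbb and Eip75B kept 9 each.

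**Figure D2:**
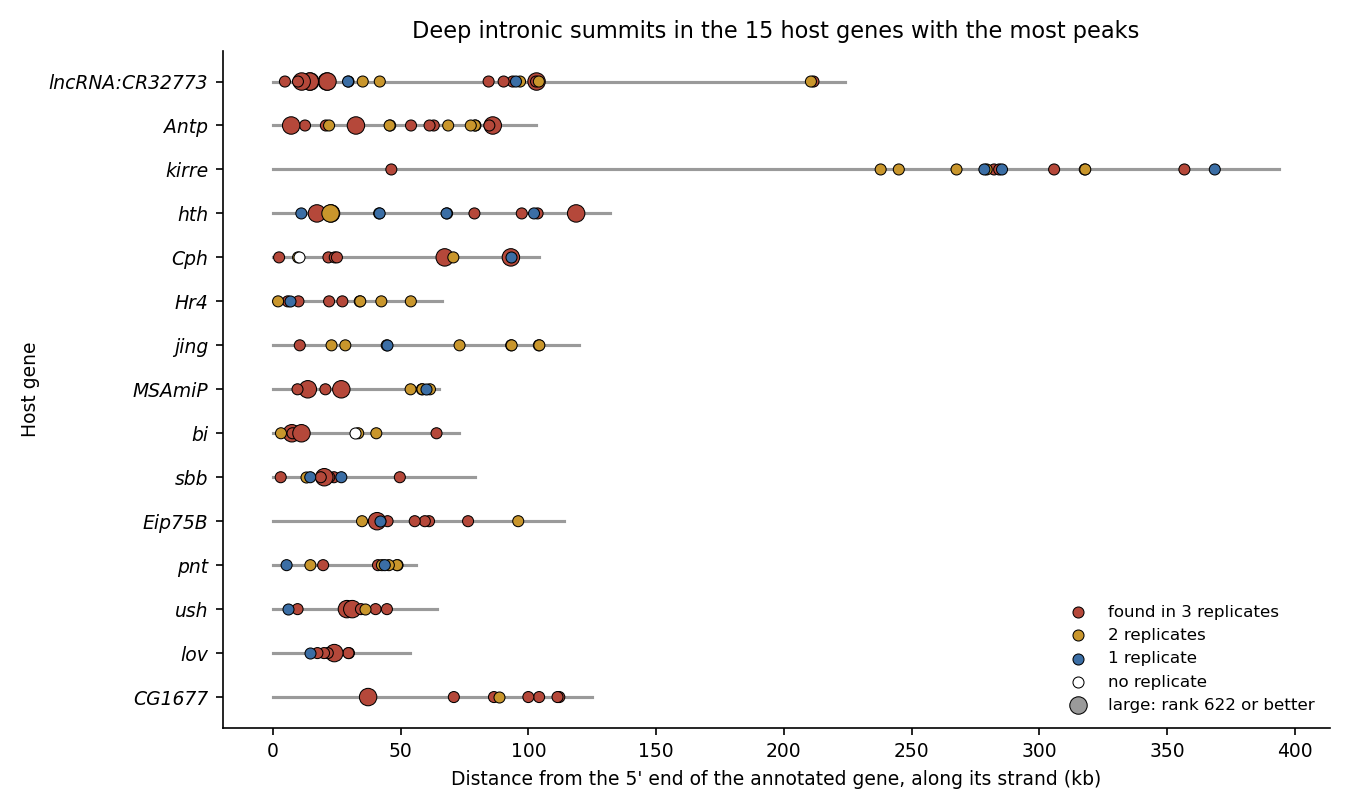
Positions of deep intronic summits along the 15 host genes with the most peaks, in kb from the 5' end of the annotated gene (x axis), 1 line per gene (y axis). Colour gives the number of replicates in which the summit was found and large points have an optimal rank of 622 or better. lncRNA:CR32773 held 22 summits, and those of lov lay within 15.1 kb.

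Members were often close to each other. Another member lay within 500 bp of 11.5% of them and within 5000 bp of 49.0%, while 27.3% had none within 20000 bp. In lov, 8 summits spanned 15.1 kb (2R:25109875-25124965) and 7 of them were found in all 3 replicates. In sbb, 7 summits spanned 14.0 kb, with 4 found in all 3. In zfh2, 6 summits spanned 4.69 kb (4:505326-510020), 4 of them found in all 3. In Raf, the kinase of the EGF receptor pathway, 5 summits spanned 6.39 kb and all 5 were found in all 3. A span like that of zfh2 contains wide peaks with several summits, so summits in 1 gene are not independent sites.

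Host genes often had a promoter peak as well. Of 3952 protein-coding genes with eligible bases, 575 (14.5%) held at least 1 deep intronic peak, and this share is the background for the gene lists below. A promoter peak was present at 344 of these 575 (59.8%) and at 919 of the 3377 without a deep intronic peak (27.2%). Host genes were longer, so the shares were set out by eligible length. With under 5 kb of eligible sequence 51.8% of hosts and 27.7% of the others had a promoter peak. At 10 to 20 kb these shares were 65.9% and 27.1%, and at 40 kb or more 52.8% and 20.3%. The difference in the shares was present in each length class, but no test was run, since genes are not replicates. The share of genes with a member was 3.27% under 5 kb of eligible sequence, 36.9% at 10 to 20 kb and 46.3% at 40 kb or more.

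Lists of genes for patterning and signalling held more deep intronic peaks per length than lists of neuronal effector genes. The 19 lists were chosen with earlier results of these data known, so their counts are descriptions. Over all protein-coding genes the density was 2.96 peaks per 100 kb of eligible sequence.

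Of the 8 Hox genes, which set segment identity, 7 held at least 1 member (7, 7 and 6 in the replicates) with 14.7 peaks per 100 kb. These were Antp with 16, Ubx with 6, Abd-B with 4, abd-A with 3, and Scr, pb and lab with 2 each. Among LIM and neural homeobox genes 12 of 20 had a member, at 11.9 per 100 kb, led by ct with 7 peaks, Lim1 with 4 and otp with 3. Among zinc finger and timing factors 13 of 18 had one, at 9.11 per 100 kb. The POU gene pdm2 of neuroblast timing held 5 peaks at 34.2 per 100 kb, 4 of them with CCAAT and 4 found in all 3 replicates.

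Ecdysone response genes, which carry the steroid signal of the fly, had members in 8 of 10, at 10.1 per 100 kb. One of them, ftz-f1, had 8 peaks in the optimal list but 2, 2 and 10 in the replicates, so its count rests on replicate 3. Only 1 of its 8 peaks was found in all 3 replicates, and none held CCAAT. Members found in replicate 3 alone had a mean GC content of 32.1% at the summit, against 42.6% for those found in replicates 1 and 2 but not 3. The part of base composition in the ftz-f1 count was not tested.

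Signalling lists had higher densities than the 2.96 of all genes as well. EGF receptor and FGF pathway genes had members in 8 of 13 (8.92 per 100 kb), BMP pathway genes in 6 of 11 (8.34), Wnt and Hedgehog pathway genes in 10 of 16 (6.66) and Notch pathway genes in 3 of 9 (6.63). In the first of these, aop, which encodes the ETS repressor Yan, held 5 peaks at 37.6 per 100 kb, with 4, 4 and 3 in the replicates. In the BMP list, tkv, a BMP receptor gene, had 3 peaks but 4, 2 and 0 in the replicates. In the Wnt and Hedgehog list, the receptor genes fz and fz2 held 5 and 4 peaks (5, 6 and 5, and 6, 7 and 4 in the replicates), and the ligand gene hh held 2 (3, 3 and 2). In the Notch list, mam had 5 peaks but 2, 3 and 7 in the replicates. There fng had 3 peaks but 3, 2 and 0. The median eligible length of the signalling lists ran from 12.4 to 18.7 kb. Protein-coding genes with 10 to 20 kb of eligible sequence held 46.9 peaks per Mb, more than all such genes. The Notch counts leave out Delta, which was listed as Dl and not matched. It held a member at rank 2973 that was found in all 3 replicates.

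Genes of the differentiated nervous system stood lower per length than the lists above. Axon guidance genes had members in 11 of 23 at 3.14 per 100 kb, close to the background density. Neuronal adhesion genes had members in 11 of 31 at 1.73 per 100 kb, and 14 of their 30 peaks were in kirre. Ion channel genes had members in 2 of 31, Shal and Ih, at 0.231 per 100 kb over 865 kb. Both peaks ranked low, 4492 and 5791, and neither was found in all 3 replicates. Amine and peptide receptor genes had none in 21 over 464 kb, with 0, 0 and 1 host in the replicates. Their median eligible lengths of 22.7 and 18.6 kb were longer than the 15.9 kb of the Hox genes. Among all protein-coding genes, density was 46.9 peaks per Mb at 10 to 20 kb of eligible sequence, 32.9 at 20 to 40 kb and 18.2 at 40 kb or more. Axon guidance (median 24.0 kb) was thus near the value for 20 to 40 kb. Neuronal adhesion (median 38.2 kb) was below that value and near the value for 40 kb or more.

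The remaining lists varied. Retinal determination genes had members in 5 of 8 (8.16 per 100 kb, with 1 peak in each of the 5), Hox cofactors and teashirt in 1 of 3 (11.2, all of it hth), and BTB zinc finger genes in 10 of 12 (4.43). RNA-binding regulators had members in 7 of 14 at 1.55 per 100 kb, and all 5 peaks of the splicing factor gene Rbfox1 were found in all 3 replicates. Junction and polarity genes had members in 4 of 11 (3.83), but in 1, 1 and 4 in the replicates; scrib held 3 peaks with 0, 1 and 4 in the replicates. Muscle structure genes had members in 1 of 13 (0.893), and cell death inducers in none of 3 with 13.3 kb of eligible sequence between them. In 15 of 19 lists the share of genes with a member was above the 14.5% of all genes. That background has a median of 1.72 kb of eligible sequence per gene, shorter than in most lists. Against genes of like length, neuronal adhesion (35.5% at a median of 38.2 kb) was below the 41.7% of genes with 20 to 40 kb. The Notch pathway had 33.3% at 13.6 kb, beside 36.9% of genes with 10 to 20 kb. That share leaves out Delta, which held a member, so no order is given.

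**Figure D3:**
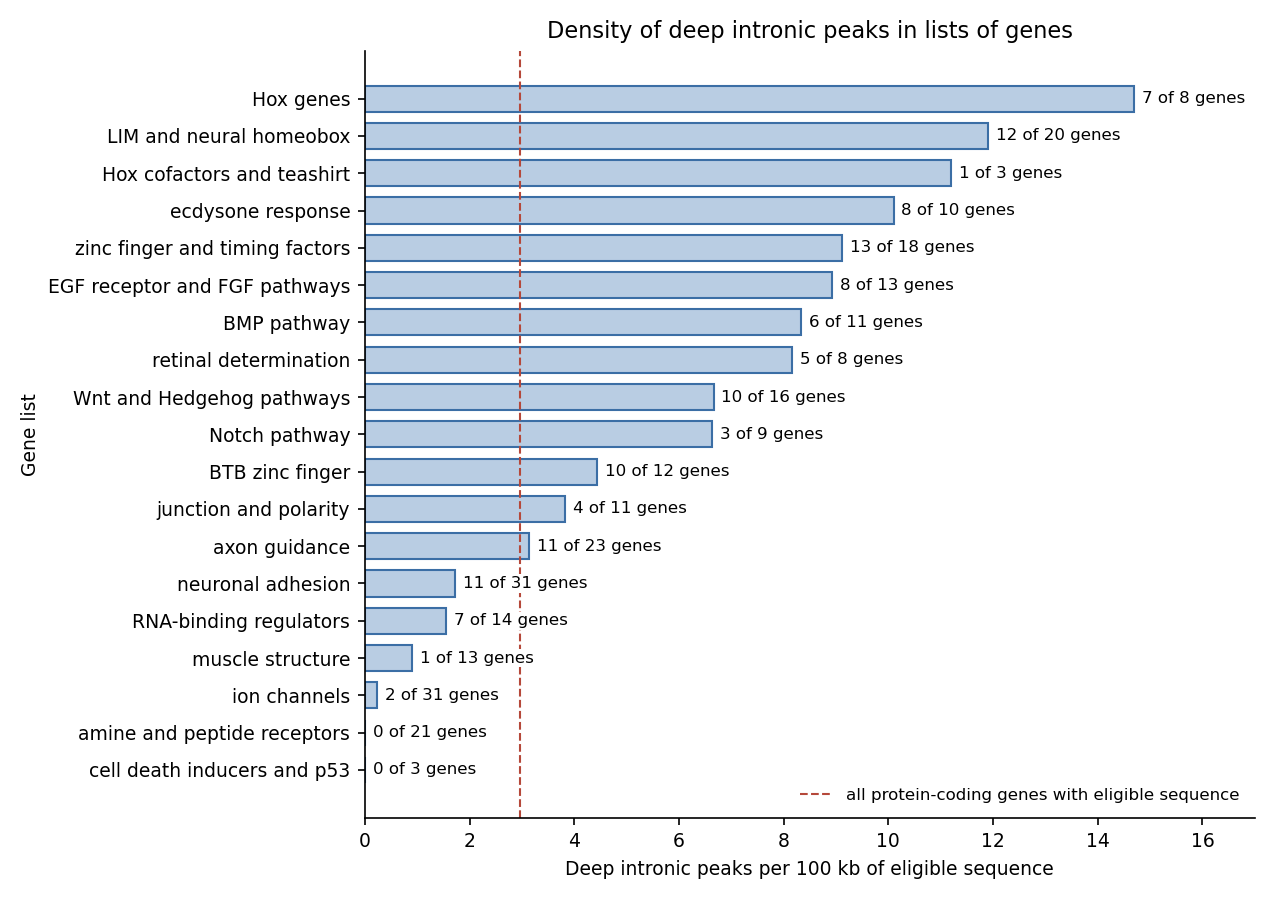
Deep intronic peaks per 100 kb of eligible sequence (x axis) for 19 lists of genes (y axis), with the number of genes that held at least 1 member beside each bar. The dashed line is the 2.96 per 100 kb over all protein-coding genes with eligible sequence. The bars run from 14.7 for the Hox genes to 0 for the amine and peptide receptors and the cell death inducers. The Notch pathway bar and count leave out Delta.

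Recovery of deep intronic peaks in the replicates followed their signal. A member counted as found where its summit lay within 100 bp of a summit among the top 6221 peaks of a replicate. Of the 1254 members, 652 were found in all 3 replicates (52.0%, exact 95% interval 49.2% to 54.8%), 361 in 2, 227 in 1 and 14 in none. The share over all optimal peaks was 54.6%. In the single replicates 80.0%, 76.4% and 75.3% of members were found (77.2% ± 2.46, SD, n = 3), against 81.0%, 75.8% and 80.3% of the other peaks (79.0% ± 2.84). The members were lower in 2 of 3 replicates, a mean difference of -1.80 percentage points (p = 0.5, adjusted p = 0.567, two-sided exact permutation test of the 3 pairs).

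Members were divided by signal into 5 equal groups. The share found in all 3 was 97.6% in the group with the highest signal, then 88.0%, 58.2%, 14.3% and 1.60%. The signal of the optimal list comes from the same 3 replicates pooled, so a relation of signal to recovery is partly built in. The lists compared were of equal length, so peaks near the end of the optimal list could drop out of a replicate's top 6221 while still being called there. With all 30000 peaks of each replicate, 88.0% of members were found in all 3. Of all members, 205 were found in replicates 1 and 2 only (16.3%, against 11.6% of all other peaks). A further 136 were found in replicate 3 only (10.8%, against 8.78%). Mean GC content at deep intronic summits was 40.2%, 40.9% and 36.4% in the 3 replicate lists, with replicate 3 the lowest.

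The share of wide peaks and the share with the most common width also followed signal, but width itself did not fall steadily with it. Exactly 444 bp was given for 682 members (54.4%), 435 were narrower and 137 wider (10.9%). Of the strongest of the 5 signal groups, 45.4% were wider than 444 bp, and of the next 4.38%. In that next group 20.7% had exactly 444 bp, so most of its peaks were narrower. The fixed width was given for 0.797% of the strongest group, 65.3% of the third and 93.6% of the weakest. Among members in the top 3110 of the list it was 13.5%, so the width separates fewer of the weaker peaks.

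**Figure D4:**
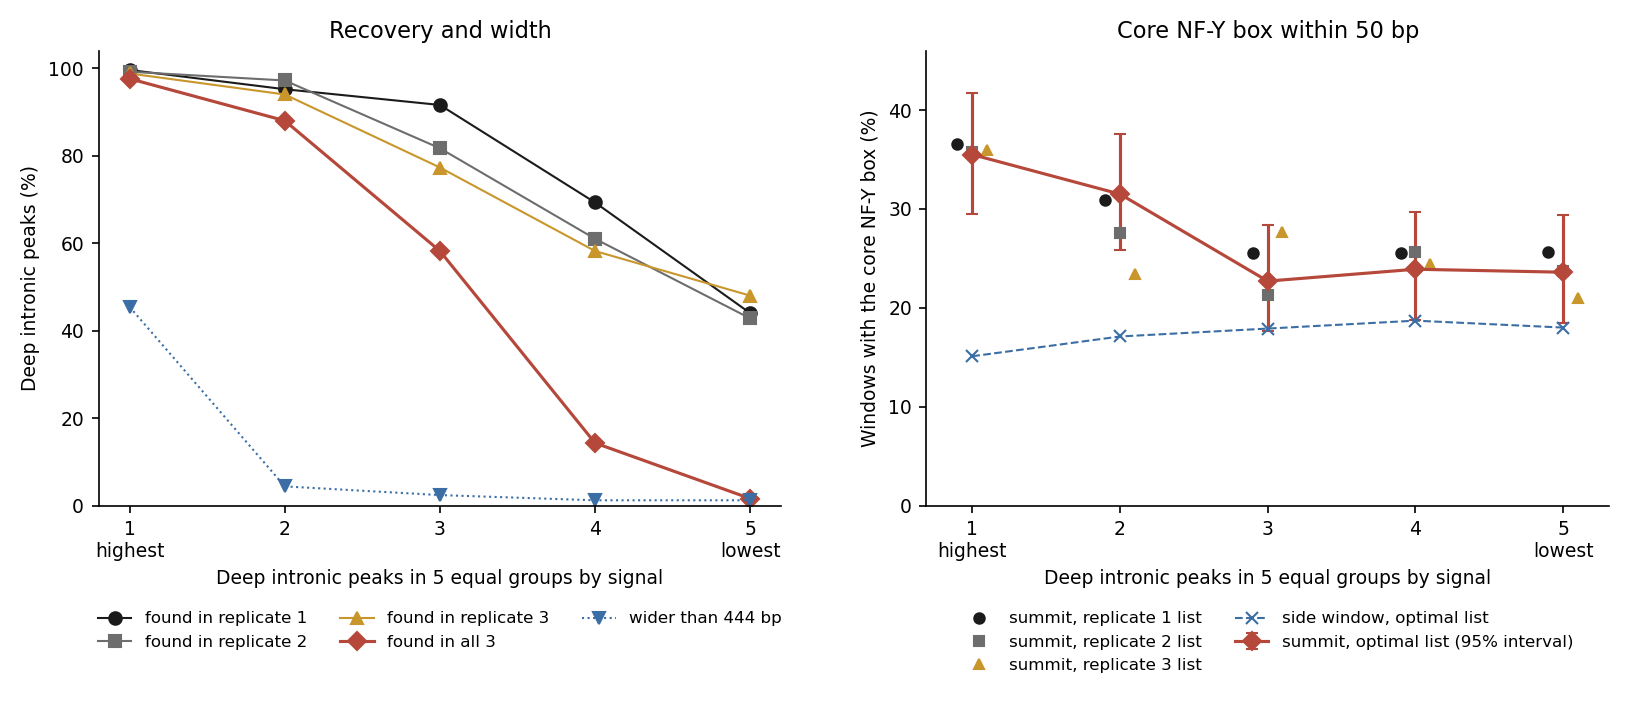
Deep intronic peaks in 5 equal groups by signal (x axes, highest at the left). At the left, the percentage found in each replicate, found in all 3 and wider than 444 bp. At the right, the percentage of windows with the core NF-Y box within 50 bp of the summit in the optimal list, with exact 95% intervals, in the replicate lists and in the side windows. The share found in all 3 went from 97.6% to 1.60%, and the share with the box from 35.5% to 23.6%.

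The CCAAT box was enriched at deep intronic summits but was present at a minority of them. It was found within 50 bp of 344 summits (27.4%, exact 95% interval 25% to 30.0%), against 27.0% over all optimal peaks. In windows of equal size centred 500 bp to the lower coordinate the share was 17.4%, and 17.8% to the higher coordinate. In the replicate lists it was 28.8%, 26.8% and 26.5% at the summit and 17.7%, 16.7% and 17.3% at the side. The summit was higher in 3 of 3 replicates, by more than the spread between them. The difference of 10 percentage points passed the two-sided exact McNemar test over the peaks (adjusted p = 1.14e-08, Benjamini-Hochberg over 15 motifs). Peaks are not replicates of the experiment, so this p describes the optimal list. Over the 3 replicate pairs the mean difference was 10.1 ± 0.947 points (SD of the differences), with p = 0.25 in the two-sided exact permutation test, the smallest p it can give (adjusted p = 0.354).

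A longer form of the NF-Y site, CCAAT preceded by 2 purines and followed by G or C and a purine, was at 79 summits (6.30%). Its share at the side was 0.877%, lower by a factor of 7.18 (exact McNemar test, adjusted p = 1.17e-12). It was at 5.80% of all optimal peaks, and every match also counts as a match of the shorter box. As a control, CACAT, which has the same letters in another order, was at 21.5% of summits against 21.1% at the side (exact McNemar test, adjusted p = 0.863). Over the 1000 bp around the summit, the 2 central bins of 20 bp had a mean of 6.98% of peaks with CCAAT and the outer bins 3.99%, and CACAT was at 4.98% and 4.97%. Of the 344 summits with the box, 284 had 1 and 60 had 2 or more. The boxes were on the strand of the host gene 193 times and on the opposite strand 223 times.

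**Figure D5:**
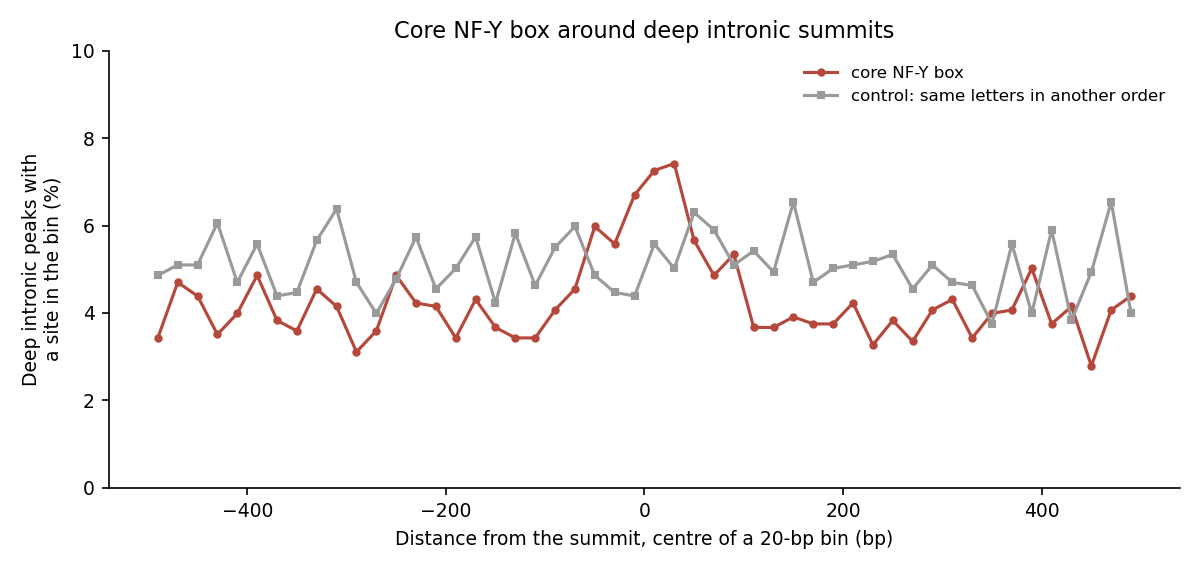
Percentage of the 1254 deep intronic peaks with the core NF-Y box, or with a control of the same letters in another order, in bins of 20 bp (y axis) by distance from the summit (x axis). The box had a mean of 6.98% in the 2 central bins and 3.99% in the outer bins, and the control 4.98% and 4.97%.

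The share with CCAAT was 35.5% in the strongest signal group, then 31.5%, 22.7%, 23.9% and 23.6%. Side windows held it in 15.1% to 18.7%. In the replicate lists the strongest group had 36.1% ± 0.423 and the weakest 23.4% ± 2.32 (SD, n = 3), and the ranges did not overlap. By distance, from the bin nearest to a TSS to the farthest, the share was 26.8%, 25.6%, 26.5%, 33.0% and 28.6%, with no steady order. By arm it was 19.5% on 3L, 24.6% on 2R, 28.1% on X, 29.4% on 2L, 31.9% on 3R and 41.7% on chromosome 4, which has 12 members.

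Deep intronic peaks held CCAAT less often than distal intergenic peaks in each replicate list. The shares were 28.8%, 26.8% and 26.5% against 32.9%, 31.1% and 31.6%, a mean difference of -4.48 ± 0.567 percentage points (SD of the differences, n = 3). They held it more often than promoter peaks, which had 23.7%, 24.5% and 24.2%, by 3.22 ± 1.61 points. Both gave p = 0.25, the smallest p of the two-sided exact permutation test with 3 pairs (adjusted p = 0.354). Near intronic peaks had 26.9% ± 1.38 and were lower in 2 of 3 replicates (exact permutation p = 0.5, adjusted p = 0.567). Mean GC content at the summit was 39.2% ± 2.44 in deep intronic and 43.5% ± 1.84 in distal intergenic peaks, lower in 3 of 3. Side windows at the lower coordinate held CCAAT in 17.7%, 16.7% and 17.3% of deep intronic peaks. For distal intergenic peaks they held it in 20.4%, 19.3% and 20.8%, and for promoter peaks in 18.7%, 18.2% and 18.5%. The lower share against distal intergenic peaks was thus also present away from the summit. The part of base composition or of the surrounding sequence in the CCAAT shares was not tested.

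The motif tests count peaks, which are not replicates of the experiment, and only CCAAT was also tested over the replicate pairs. Of 15 motifs, 4 passed the test as more frequent at the summit than at the side and none passed as less frequent. Besides both NF-Y forms these were GAGAG (17.6% against 13.4%, exact McNemar test, adjusted p = 0.0166, 18.0% of all optimal peaks) and the GATA site, GATA with A or T before it and a purine after it (22.7% against 17.5%, adjusted p = 0.00403, 19.9% of all optimal peaks). GATA sites were at 23.1%, 21.0% and 24.6% of summits and 16.4%, 16.9% and 19.0% of side windows in the replicates. GAGAG was at 18.5%, 19.2% and 14.8% of summits and 12.2%, 13.5% and 14.1% of side windows. Both were higher at the summit in 3 of 3 replicates, but for GAGAG the difference was small in replicate 3. In the optimal list, mean GC content was 38.4% at deep intronic summits and 40.8% in the side windows at the lower coordinate. The part of base composition in these motif shares was not tested. The other 11 motifs did not pass, the nearest by the exact McNemar test being the E-box CACGTG (1.67% against 0.638%, adjusted p = 0.0724) and the TATA box (6.46% against 4.47%, adjusted p = 0.0926). For CACGTG the side window at the higher coordinate held 1.44%, and the replicate lists had 1.20% ± 0.0570 at the summit against 1.03% ± 0.265 at the side (SD, n = 3), higher in 2 of 3. The Zelda site CAGGTAG was at 0.558% of summits and 0.718% of side windows.

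Density on the chromosome arms ranged from 26.6 peaks per Mb of eligible sequence on 3L to 36.5 on X, where replicate lists gave 34.6 ± 0.688 (SD, n = 3). Chromosome 4 held 12 members with a median rank of 562.5, of which 75% were found in all 3 replicates. Of these 12, 6 were the zfh2 cluster. Of all members, 2 had their summit in an annotated transposable element and 272 (21.7%) on a soft-masked base.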

How the data were processed

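Per the readme texts, the authors called peaks on each of 3 replicates against 1 control alignment, called a pooled list, and derived the optimal list from these. Aligner, caller and versions were not given in the sources used here, and read depth is unknown. The deposited signal value ranked peaks within a list, and the deposited −log10 q-value served as an alternative ranking. Replicate lists were cut by signal to the 6221 peaks of the optimal list.

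Genes came from Ensembl release 115 and sequence from the RefSeq copy of dm6 (99.8% of annotated start codons read ATG). Motifs were searched on both strands, overlaps allowed, within 50 bp of the summit: the NF-Y box and its longer form, their reordered control, the GAGA, Zelda, GATA and AP-1 sites, a pair of E-boxes (CAGCTG being the one not yet named), the homeodomain core, the BEAF core CGATA, the Pho core GCCAT, the Sox core ACAATG, and the TATA and initiator elements. Exact intervals at 95% are Clopper-Pearson and cover counting only. Of 320 listed symbols, 2 matched no single gene: Dl of the Notch list, named Delta in the annotation, and Unc-89 of the muscle list. A further list is not reported here. Sequences from arm 2R were not printed. Named hosts were the 15 with the most members, named peaks the 15 strongest found in all 3 replicates, and per list up to 3 hosts with the most members. Hosts outside this rule (Raf, zfh2, sens-2, abd-A, Delta and the smaller Hox counts) were named after their values were seen. Members and lists were chosen with earlier results of these data known. The labels number biological replicates without naming the parent cultures. Scripts used Python 3.11.15 with scipy 1.17.1 and were tested on simulated data.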

Additional observations from a re-analysis of the deposited data

Results flagged for a closer look

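The pooled list contains peaks below the optimal list that no comparison above used. Of its 23779 such peaks, 7038 met the deep intronic position rule. CCAAT lay within 50 bp of 20.7% of these summits (exact 95% interval 19.8% to 21.7%), above the 17.8% in their side windows (two-sided exact McNemar p = 1.71e-05 over peaks, which are not replicates). The share was below the 27.4% of the deep intronic peaks in the optimal list and below the 23.6% of the weakest of their 5 signal groups. It was listed because it is a signal above its control windows in peaks left out of the optimal list. With 3 replicates, no test for a sample far from the others was made.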

How the results depend on the processing

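The excess of CCAAT at summits over side windows kept its direction and its side of the threshold under 13 of 13 alternatives, from 6.70 to 17.2 percentage points, with no adjusted p above 5.23e-04. The differences in CCAAT to distal intergenic and promoter peaks kept their direction with windows of 25 and 100 bp and without any 1 replicate.

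Counts moved most with the position rule and the list. There were 656 deep intronic peaks beyond 5000 bp and 548 in the top 3110 by signal. Hosts with 5 or more peaks numbered 65 beyond 1000 bp, 20 beyond 5000 bp, 15 in the top 3110, 17 among members found in all 3 replicates, and 18 to 26 when 1 replicate was left out. The share found in all 3 was 41.8% within 50 bp, 56.7% within 200 bp, 88.0% with all replicate peaks and 90.5% in the top 3110, and 57.2% to 68.3% were found in both others when 1 replicate was left out. The median rank over replicates was 3437 to 4026 when 1 was left out. The share in first introns was 36.4% with the transcript with the most exons, 42.3% with the shortest gene as host, 42.2% in the top 3110 and 41.7% to 42.4% without 1 replicate. The most common width was held by 13.5% in the top 3110. The relative density was 1.62 in first introns, 1.59 over unmasked bases and 1.52 without the 5 long genes; beyond 20000 bp it was 0.214, 0.258 and 0.323. Fewer peaks or samples enter several of these by construction, and otherwise the cause was not tested. The density ratios, counting transposable elements as genes (1193 members), the list count, windows for class differences and first introns without 1 replicate were added after the data were seen. Between groups of samples, no paired analysis was possible because all samples form 1 group; only classes of peaks within a replicate were compared as pairs. Depth is unknown from these files.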
